A study of Homo sapiens with 4 samples.

Results

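Collagen chains were examined in HCT116, an established line of human colorectal carcinoma cells, after exposure to 5-aza-2'-deoxycytidine (5aza below, also called decitabine), a cytidine analog that is built into DNA and blocks DNA methyltransferases. The members were all genes whose symbol is COL, a number, A and a number and that had an array probe set naming that gene alone. There were 42 such genes among 17958 genes tested, and a gene with several probe sets was read from the one whose 4-array mean was highest. The 5aza group (2 arrays) held cells given 1 µM drug 24 hours after seeding and again 48 hours after the first dose, and the vehicle group (2 arrays) held cells given vehicle. RNA of both groups was taken 72 hours after the first dose. The labels give no genetic change in either group, so all samples are the same line, and they do not say whether the 2 samples of a group were separate cultures. The spread behind each p-value is thus the spread between these arrays and may be purely technical.

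Collagens are secreted or membrane-bound proteins in which chains with a repeated glycine motif wind into a triple helix, so that the chains of a trimer are often products of different genes. Fibrillar chains build the banded fibrils of connective tissue, network chains build basement membranes and other sheets, FACIT chains (fibril-associated collagens with interrupted triple helices) coat fibrils, and transmembrane chains sit in the cell surface. In the gut wall, fibroblasts make most fibrillar collagen, while the epithelium rests on a basement membrane of laminin and type IV collagen. The members comprised 11 fibrillar, 9 network, 10 FACIT, 3 transmembrane and 2 multiplexin genes, and 7 genes of type VI and other collagens. The network group joined type IV with the short chains of types VIII and X.

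Promoter windows are shown for COL6A3, a large rise with few CpGs, and for 1 gene of each divergent pair of type IV genes. The RefSeq promoter table (GRCh38.p14) covers 250 bases before to 50 bases after each start. Its windows matched 30 of the 42 genes. The windows below are printed 5′ to 3′ on the gene's own strand with every CpG, the dinucleotide CG at which DNA is methylated, in capitals. They lie at chr2:237414115-237414414 (minus strand) for COL6A3, chr13:110307034-110307333 (plus strand) for COL4A2, chr2:227164374-227164673 (plus strand) for COL4A3 and chrX:108439588-108439887 (plus strand) for COL4A5.
COL6A3: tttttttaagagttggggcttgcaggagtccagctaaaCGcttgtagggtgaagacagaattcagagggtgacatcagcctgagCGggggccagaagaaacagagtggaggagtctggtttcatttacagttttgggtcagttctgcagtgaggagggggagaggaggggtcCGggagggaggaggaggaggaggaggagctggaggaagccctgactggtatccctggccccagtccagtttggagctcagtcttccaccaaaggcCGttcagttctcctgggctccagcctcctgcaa
COL4A2: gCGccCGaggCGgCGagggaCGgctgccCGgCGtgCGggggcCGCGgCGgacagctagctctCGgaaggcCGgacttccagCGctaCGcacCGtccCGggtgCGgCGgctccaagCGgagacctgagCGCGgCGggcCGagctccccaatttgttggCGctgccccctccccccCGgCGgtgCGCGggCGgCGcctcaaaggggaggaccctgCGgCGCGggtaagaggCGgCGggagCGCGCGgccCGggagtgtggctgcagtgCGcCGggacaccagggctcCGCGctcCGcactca
COL4A3: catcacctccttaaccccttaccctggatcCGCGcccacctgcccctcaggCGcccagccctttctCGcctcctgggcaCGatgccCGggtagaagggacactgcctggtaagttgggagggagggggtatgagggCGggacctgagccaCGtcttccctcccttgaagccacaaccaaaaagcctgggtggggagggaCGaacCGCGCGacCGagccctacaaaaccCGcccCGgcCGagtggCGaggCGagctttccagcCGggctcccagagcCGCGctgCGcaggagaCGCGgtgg
COL4A5: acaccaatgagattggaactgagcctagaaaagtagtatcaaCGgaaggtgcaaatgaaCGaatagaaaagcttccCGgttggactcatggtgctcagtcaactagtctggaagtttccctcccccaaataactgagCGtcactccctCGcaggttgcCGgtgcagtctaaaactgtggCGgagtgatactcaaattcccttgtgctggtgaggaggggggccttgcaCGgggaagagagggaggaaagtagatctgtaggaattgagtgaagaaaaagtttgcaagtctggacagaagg
The COL6A3 window held 4 CpGs and the COL4A5 window 8. The COL4A3 window held 24 and the COL4A2 window 45, against a median of 14 over all 35116 windows of this length.

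Values are log2 RMA levels, the array signal of a probe set after background correction, quantile normalization and summary over its probes. Probes differ in brightness, so changes are read between groups for 1 gene. Where genes are called dim or strong below, this describes the array signal and does not rank their RNA amounts. Array medians lay between 5.72 and 5.84, and Pearson's correlation across all probe sets was 0.992 between the 5aza arrays and 0.995 between the vehicle arrays, against 0.966 to 0.971 between the groups. The epithelial markers fixed for this line gave levels between 9.76 and 13.33 on every array for EPCAM, CDH1, KRT8, KRT18, KRT19, CLDN4 and CLDN7. VIL1 and CDX1 were dim on all arrays, between 4.22 and 5.81. Of the 10 epithelial markers, 2 rose, KRT18 and CDX2, with log2 changes of 0.44 and 0.70. Another 3 fell, CLDN4, EPCAM and CLDN7, with changes of -0.92, -0.72 and -0.46. Thus 5 of 10 were called, against 28.0% of all genes. With 1 array left out, the rises ran from 0 to 4 and the falls from 2 to 3. Their mean log2 level was 10.00 and 10.10 in 5aza cells, against 10.04 and 10.08 in vehicle cells. A call below means an adjusted p under 0.05 in limma's test with Benjamini-Hochberg adjustment over all genes.

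Few collagen genes changed, and only COL14A1 and COL6A3 changed by 2-fold or more. Of the 42 genes, 5 rose (COL14A1, COL6A3, COL1A1, COL4A2 and COL6A1), 1 fell (COL4A5) and 36 were not called. The called share was 14.3% of the members, against 28.0% of all genes tested. Rises made up 11.9% of the members and 12.4% of all genes. Falls made up 2.38% of the members and 15.6% of all genes. Of the members, 64.3% were in the dimmest 33.3% of genes by mean over the 4 arrays. Without that dim part, 1687 genes were called higher and 2770 lower, against 2229 and 2794 with it. The shares over all genes are thus not matched to the members' low signals, and the part played by dimness was not tested. At a 2-fold minimum 2 of 42 members rose, a share near that of all genes (907 of 17958, or 5.05%). At the same minimum 0 members fell, against 470 of all genes (2.62%). Without adjustment, 5 members (11.9%) had a p under 0.05 with a rise, against 16.6% of all genes, and 6 (14.3%) with a fall, against 23.0%. The groups did not overlap for 22 members, or 52.4%, against 65.8% of all genes: 12 members had both 5aza arrays above both vehicle arrays (background 26.3%) and 10 had both below (background 39.5%). The median log2 change of the members was -0.01 and that of all genes -0.07. Centring the arrays on 9 housekeeping genes moved the median of all genes by 0.16 and the members' median to 0.15, so the sign of a small median depends on the scaling. It also moved the share of rises among all calls to 65.5%, against 44.4% as deposited. As deposited, the 9 housekeeping genes had a median change of -0.11. At an unadjusted p under 0.05 in limma's fit, 3 of them were lower and 0 higher, and GPI was called lower (-0.46, adjusted p = 0.0304). Whether these genes are a steady reference under 5aza was not tested.

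**Figure D1:**
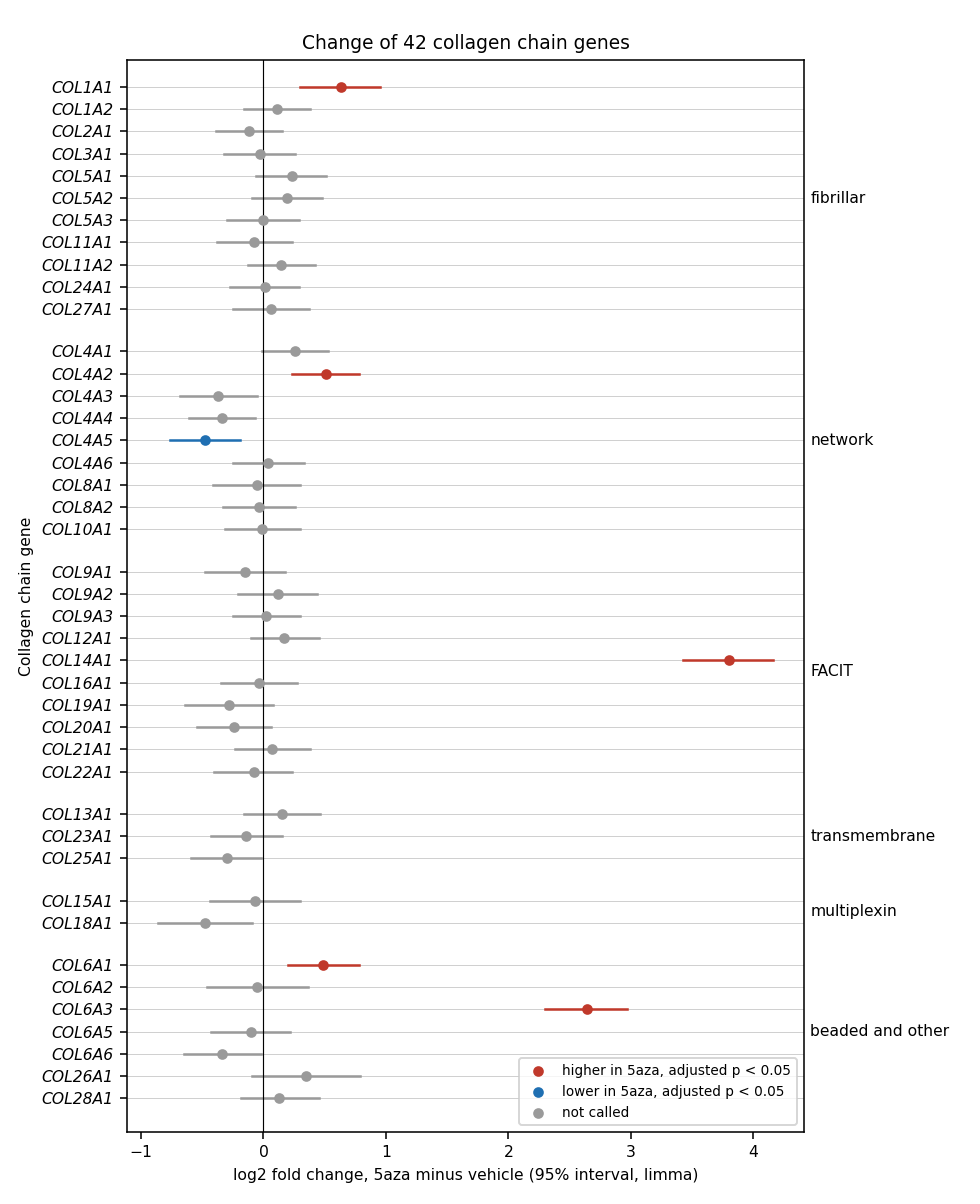
Log2 fold change (5aza minus vehicle) of the 42 collagen chain genes on the horizontal axis, by class down the page; points are limma estimates and bars their 95% intervals, red for genes called higher, blue for lower and grey for not called. COL14A1 (3.80) and COL6A3 (2.64) stand apart, and the other 40 genes lie between -0.48 and 0.63.

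The 4 main structural classes had few calls each. Fibrillar genes had 1 rise and 0 falls among 11 genes (median 0.06, range -0.12 to 0.63), and FACIT genes had 1 rise and 0 falls among 10 (median -0.01, range -0.28 to 3.80). Network genes had 1 rise and 1 fall among 9 (median -0.04, range -0.48 to 0.51). Transmembrane genes had 0 calls among 3 (median -0.14, range -0.30 to 0.15). At an unadjusted p under 0.05 in limma's fit, 23.0% of all genes were lower, and so were 3 network genes, 1 transmembrane gene and no fibrillar or FACIT gene. Differences between classes were not tested, and each class holds too few genes for its share to be set firmly against the 28.0% called among all genes.

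Most collagen genes gave low signals. The members' mean over 4 arrays ran from 2.76 (COL6A5) to 9.48 (COL6A1), with a median of 5.00, against 7.09 for the median gene. Of the 42 genes, 27 (64.3%) were among the dimmest genes of the table, a stratum set to hold 33.3% of all genes. The table has no detection calls, so which of these signals lie above background was not determined. The difference between the 2 arrays of a group had a median of 0.14 in 5aza and 0.12 in vehicle cells, with maxima of 0.43 and 0.45. COL3A1 (4.3702) and COL8A1 (3.1134) had the same value to 4 decimals on both 5aza arrays.

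**Figure D2:**
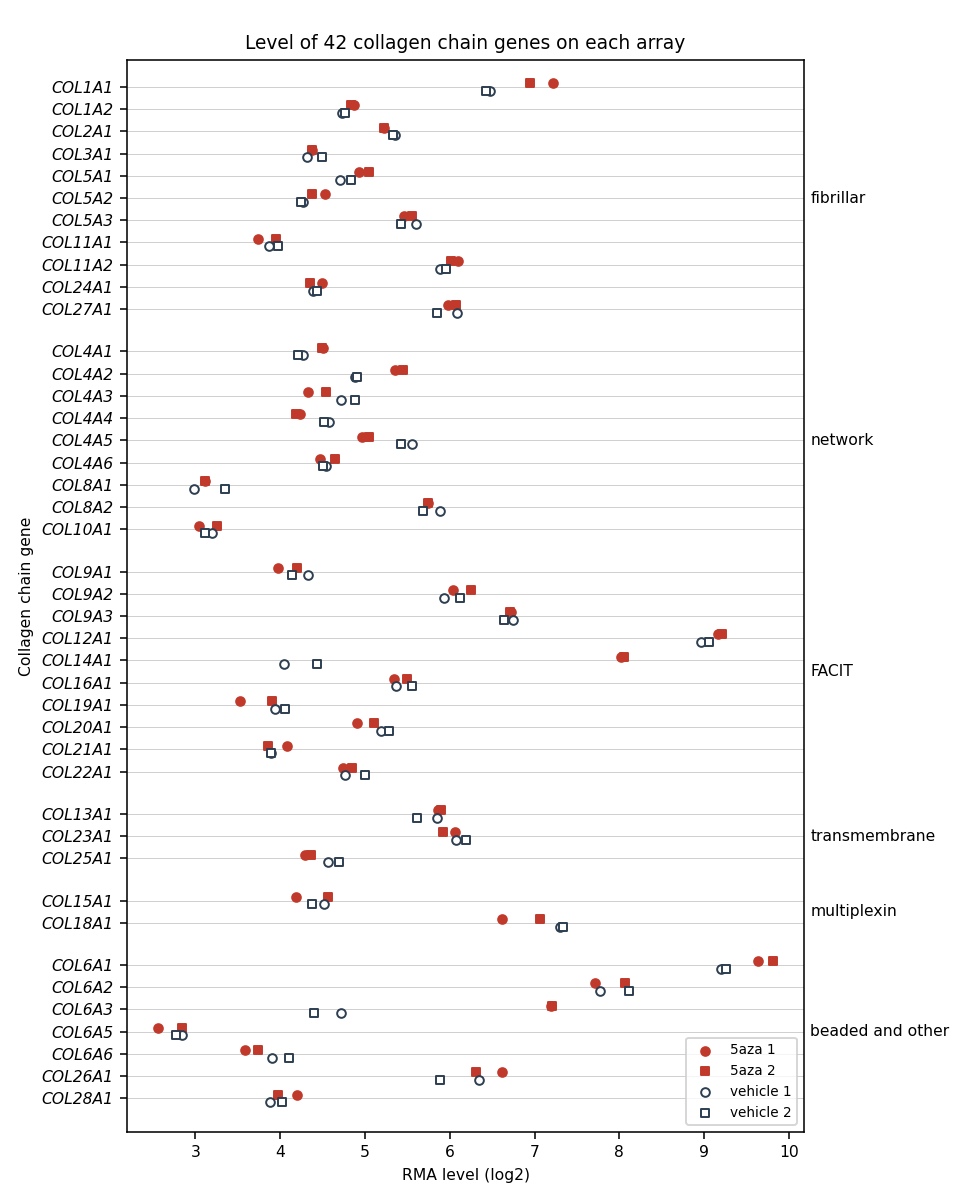
RMA level (log2) of each of the 42 collagen chain genes on every array, by class down the page; red symbols are 5aza arrays and open symbols vehicle arrays, circles for replicate 1 and squares for replicate 2. Most genes sit at low levels with the groups close together, while COL14A1 and COL6A3 show a wide gap between 5aza and vehicle.

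Among the FACIT genes, which attach to the surface of collagen fibrils, COL14A1 alone was called. COL14A1 encodes type XIV collagen, a homotrimer found on fibrils of dense connective tissue. Its level was 8.02 and 8.05 in 5aza cells, against 4.05 and 4.43 in vehicle cells. The groups were far apart, and both vehicle values lay below the upper bound of that dim stratum (5.52). The log2 change was 3.80 (SE 0.15, adjusted p = 1.33e-05 in limma's fit), or 13.9-fold on the RMA scale. Array levels cannot tell more expressing cells from more RNA per cell. COL12A1, a close relative of COL14A1, gave a strong signal in both groups. Its level was 9.16 and 9.21 in 5aza cells, against 8.96 and 9.06 in vehicle cells, and its change of 0.17 was not called (95% interval -0.10 to 0.45).

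The 3 type IX chains, which decorate cartilage fibrils as a heterotrimer, were not called. COL9A1 changed by -0.15, COL9A2 by 0.12 and COL9A3 by 0.02, and the arrays of the groups overlapped for each. COL16A1, COL21A1 and COL22A1 also had overlapping arrays, with changes of -0.04, 0.07 and -0.08. COL19A1 and COL20A1 were lower on both 5aza arrays than on both vehicle arrays, by 0.28 and 0.24 on the log2 scale, without a call. Leaving out 5aza replicate 2 gave COL19A1 a change of -0.46 with a call (adjusted p = 0.0422), and leaving out 5aza replicate 1 gave -0.09. The class median of -0.01 became 0.15 with housekeeping centring.

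COL6A3 was the other large rise. It encodes the long chain of type VI collagen, which assembles with the COL6A1 and COL6A2 chains into beaded microfibrils around cells. Its level was 7.19 and 7.20 in 5aza cells, against 4.72 and 4.40 in vehicle cells. The groups were again far apart, and the vehicle values lay below the upper bound of the dim stratum. The log2 change was 2.64 (SE 0.14, adjusted p = 4.32e-05 in limma's fit), or 6.22-fold. COL6A1 was at 9.64 and 9.81 in 5aza cells, against 9.20 and 9.26 in vehicle cells, a rise of 0.49 (SE 0.12, adjusted p = 0.0249). COL6A2 was at 7.71 and 8.07 in 5aza cells, against 7.77 and 8.11 in vehicle cells. Its arrays overlapped, with a change of -0.05 and a 95% interval of -0.46 to 0.36. The 3 chains of the trimer thus had changes of 2.64, 0.49 and -0.05, and the difference between chains was not tested. The call of COL6A1 was lost without vehicle replicate 1 (adjusted p = 0.183), without vehicle replicate 2 (adjusted p = 0.131) and without 5aza replicate 2 (adjusted p = 0.0545), with log2 changes of 0.41 to 0.58 over the 4 fits that leave out an array.

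The remaining type VI chains, COL6A5 and COL6A6, were dim, with changes of -0.10 and -0.34 that were not called. COL26A1 and COL28A1 changed by 0.35 and 0.13, with overlapping arrays. COL7A1, which forms the anchoring fibrils of epithelial basement membranes, had only a probe set that also names MIR711 and is not a member. That probe set read 5.21 and 5.18 in 5aza cells, against 5.28 and 5.26 in vehicle cells.

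**Figure D3:**
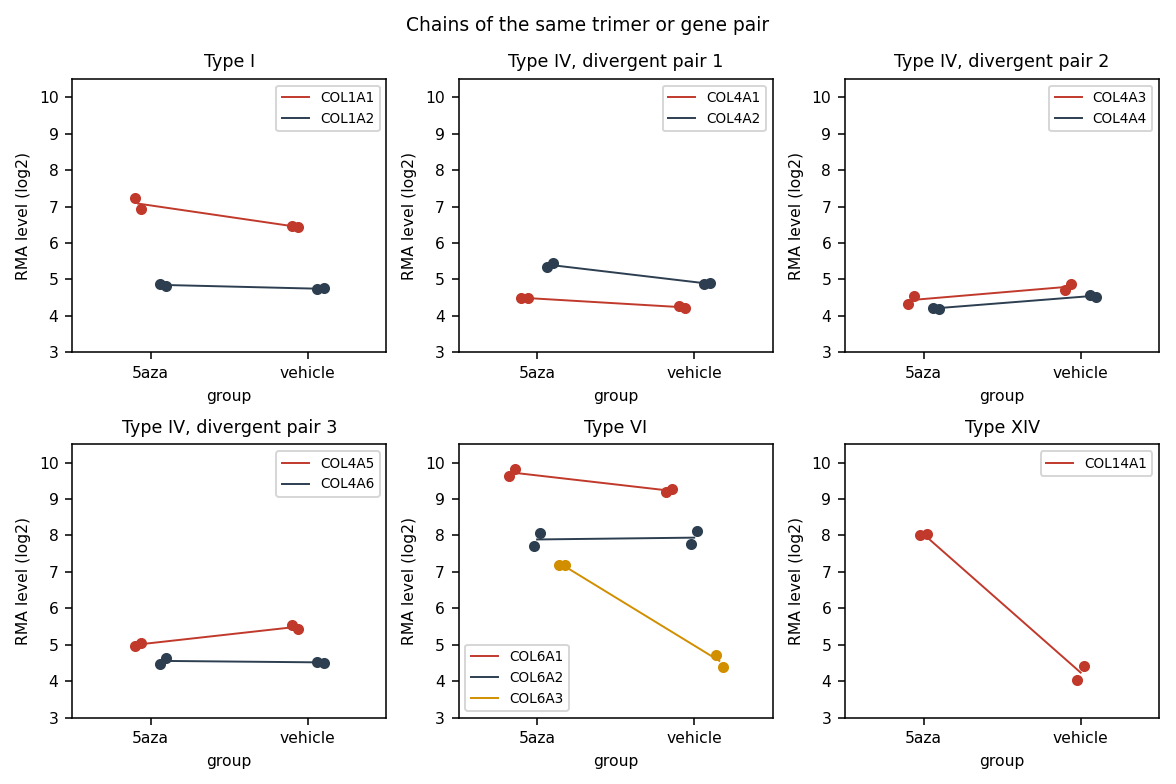
RMA level (log2) on each array (points) with group means joined by lines, 5aza left and vehicle right, for chains that share a trimer or a divergent gene pair, and for COL14A1. COL14A1 and COL6A3 are far higher in 5aza, the groups overlap for COL6A2 and COL4A6, and COL4A5 is lower in 5aza.

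Of the 11 fibrillar genes, COL1A1 alone was called. COL1A1 and COL1A2 encode the chains of type I collagen, the main collagen of connective tissue, and COL1A1 can also form a homotrimer. COL1A1 was at 7.22 and 6.94 in 5aza cells, against 6.47 and 6.43 in vehicle cells, so both 5aza arrays were higher. The log2 change was 0.63 (SE 0.14, adjusted p = 0.0151 in limma's fit). COL1A2 was at 4.87 and 4.83 in 5aza cells, against 4.73 and 4.76 in vehicle cells. These groups did not overlap either, but the change of 0.11 was not called (95% interval -0.16 to 0.38). A probe set naming both COL1A2 and PNLIP was not used. It read 3.71 and 3.79 in 5aza cells, against 3.74 and 3.93 in vehicle cells, with overlap. The call of COL1A1 was lost without vehicle replicate 1 (adjusted p = 0.0798) and without vehicle replicate 2 (adjusted p = 0.0940), with changes of 0.64 and 0.61.

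COL3A1, the partner of type I collagen in gut stroma, changed by -0.03 with overlapping arrays. Of the type V chains, which start fibril assembly, COL5A1 and COL5A2 were higher on both 5aza arrays by 0.23 and 0.19, without a call, and COL5A3 overlapped. The cartilage chains COL2A1, COL11A1 and COL11A2 changed by -0.12, -0.08 and 0.14. A second COL11A2 probe set held the same values as the one used, and a further one changed by -0.10, opposite in sign and also not called. COL24A1 and COL27A1 changed by 0.01 and 0.06. The class median was 0.06, the only positive median among the 4 classes compared, and with housekeeping centring all 4 were positive.

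The network genes gave 1 rise, in COL4A2, and the only fall, in COL4A5. In each pair of type IV genes the starts lie close together on opposite strands, so that the genes are read away from each other. In the RefSeq windows the starts were 127 bases apart for COL4A2 and COL4A1, 419 for COL4A3 and COL4A4, and 380 for COL4A5 and the nearer start of COL4A6. COL4A1 and COL4A2 make the type IV trimer found in nearly all basement membranes. COL4A2 was at 5.35 and 5.45 in 5aza cells, against 4.88 and 4.90 in vehicle cells. Both 5aza arrays were higher, with a log2 change of 0.51 (SE 0.12, adjusted p = 0.0183). COL4A1 was at 4.50 and 4.49 in 5aza cells, against 4.27 and 4.21 in vehicle cells, again without overlap, and its change of 0.26 was not called as deposited (adjusted p = 0.142) but was with housekeeping centring (0.42, adjusted p = 0.0463). The COL4A2 call was lost without vehicle replicate 1 (adjusted p = 0.147) and without vehicle replicate 2 (adjusted p = 0.131), while the change stayed at 0.50 and 0.51.

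COL4A3, COL4A4 and COL4A5 encode the trimer of the kidney filter's basement membrane, whose loss causes Alport syndrome, and COL4A5 also pairs with COL4A6. COL4A5 was at 4.97 and 5.05 in 5aza cells, against 5.55 and 5.43 in vehicle cells. Both 5aza arrays were lower, with a log2 change of -0.48 (SE 0.12, adjusted p = 0.0255 in limma's fit). The COL4A5 call was lost without vehicle replicate 1 (change -0.41, adjusted p = 0.226), without vehicle replicate 2 (change -0.54, adjusted p = 0.111) and with housekeeping centring (change -0.32, adjusted p = 0.128). COL4A6 was at 4.47 and 4.65 in 5aza cells, against 4.54 and 4.50 in vehicle cells. Its arrays overlapped, with a change of 0.04 (95% interval -0.25 to 0.33). COL4A3 was at 4.33 and 4.54 in 5aza cells, against 4.72 and 4.88 in vehicle cells, a change of -0.37 that was not called (adjusted p = 0.0856). COL4A4 was at 4.23 and 4.19 in 5aza cells, against 4.58 and 4.52 in vehicle cells, a change of -0.34 (adjusted p = 0.0692). Neither gene's groups overlapped. The COL4A3 change was -0.47 without 5aza replicate 2 and -0.26 without 5aza replicate 1. With the replicate number as a block in limma's fit, COL4A3 and COL4A4 were called lower (adjusted p = 0.0331 and 0.0445). With housekeeping centring their changes were -0.21 and -0.18, without a call. All 6 type IV genes lay in the dim stratum. COL8A1, COL8A2 and COL10A1 changed by -0.05, -0.04 and -0.01 with overlapping arrays. The class median of -0.04 became 0.12 with housekeeping centring.

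None of the 3 transmembrane genes tested was called in limma's fit, with 1 of them lower at an unadjusted p under 0.05. COL25A1, a neuronal chain, was at 4.29 and 4.36 in 5aza cells, against 4.56 and 4.69 in vehicle cells (change -0.30, adjusted p = 0.110). COL23A1 was lower on both 5aza arrays by 0.14 and COL13A1 was higher on both by 0.15. COL17A1 of hemidesmosomes was not analysed here. Of the multiplexin genes, COL18A1, whose cleavage releases endostatin, was at 6.62 and 7.06 in 5aza cells, against 7.30 and 7.34 in vehicle cells. Both 5aza arrays were lower, but the change of -0.48 was not called (SE 0.16, adjusted p = 0.0698); without 5aza replicate 2 it was -0.69 and called (adjusted p = 0.00984). COL15A1 changed by -0.07 with overlapping arrays. COL4A5 and COL18A1 had the same rounded change, and the SE was 0.12 for COL4A5 and 0.16 for COL18A1.

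**Figure D4:**
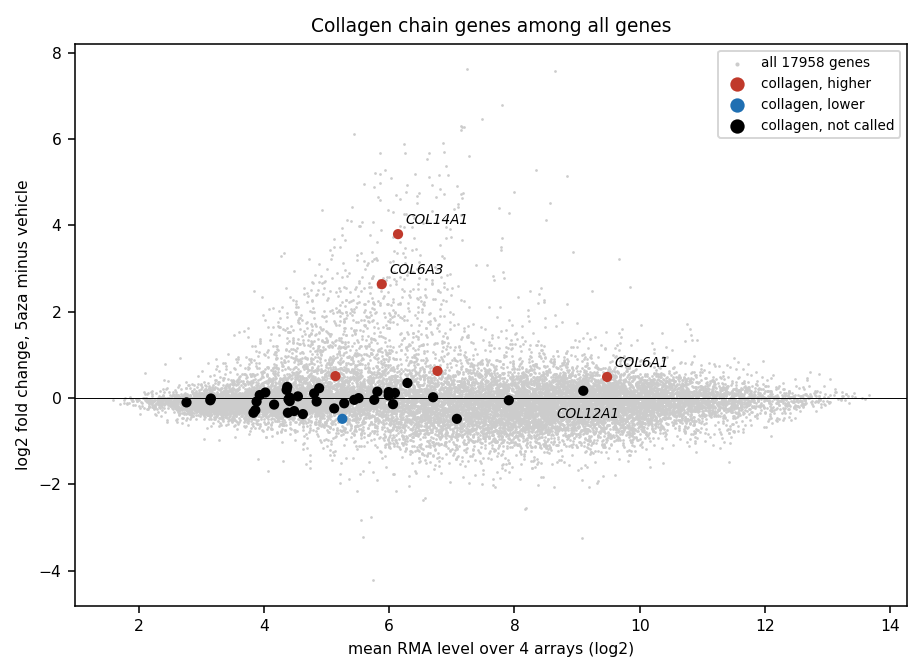
Log2 fold change (5aza minus vehicle) against mean RMA level over 4 arrays for all 17958 genes (light grey) and the 42 collagen chain genes (red called higher, blue called lower, black not called). Most collagen genes lie in the left part of the plot near 0, and COL14A1 and COL6A3 stand well above them at mean levels of 6.14 and 5.88.

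CpG counts of the promoter windows were set beside the log2 changes for the 30 members with a window. Every window was searched for CG, which reads the same on both strands, and where a gene had several windows the one with the most CpGs was used. Of the called genes, COL4A2 had 45 CpGs, COL4A5 had 8 and COL6A3 had 4. As many CpGs as in the COL4A2 window, or more, occurred in 3.48% of all windows. As few CpGs as in the COL6A3 window, or fewer, occurred in 29.6% of all windows. Of 9 collagen genes with at least 36 CpGs, 8 were not called, as were 27 of all 30 with a window. Among all 17958 genes, 12935 were not called. COL8A2 and COL15A1, with 45 each, and COL18A1, with 46, were among the 8. Spearman's rho between CpG count and log2 change was 0.02 across 30 genes, which share arrays and are not independent replicates. COL14A1, COL1A1 and COL6A1 had no window in the table. The rho thus ranks mostly small, uncalled changes and cannot settle whether CpG content orders the changes. Methylation was not measured on these arrays.

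The nearest tested genes on either side of COL14A1 and COL6A3 were chosen after values were seen, and none was called higher. Among all genes, 12.4% were called higher and 15.6% lower, and the neighbours are too few to set against these shares. Next to COL14A1 on chromosome 8, DEPTOR, an inhibitor of the mTOR kinase, averaged 6.43 ± 0.25 in 5aza cells and 8.01 ± 0.03 in vehicle cells (SD, n = 2 arrays each), and fell 2.99-fold (adjusted p = 0.000481 in limma's fit). On the other side MRPL13, a mitochondrial ribosomal protein gene, changed by -0.15 (adjusted p = 0.385). Next to COL6A3 on chromosome 2, COPS8 and MLPH changed by -0.18 and 0.09 (adjusted p = 0.513 and 0.655). COL6A1 lies on chromosome 21 between PCBP3, which fell 2.37-fold (adjusted p = 0.000480), and COL6A2. TMEM92, next to COL1A1, was called higher (0.43, adjusted p = 0.0450), and SGCA on its other side changed by 0.48 without a call (adjusted p = 0.0696). RAB20 beside COL4A2 and IRS4 beside COL4A5 were not called.

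Genes that act on collagen after translation changed in both directions. Of 14 genes for procollagen cleavage and crosslinking, 6 rose and 2 fell, or 57.1% called, against 28.0% of all genes, with a median of 0.33. TGM2, a transglutaminase that crosslinks matrix proteins, was at 10.29 and 10.54 in 5aza cells, against 8.90 and 9.07 in vehicle cells (2.69-fold higher). LOX, the lysyl oxidase that starts collagen crosslinks, rose 2.16-fold, at 4.97 and 4.59 in 5aza cells, against 3.58 and 3.76 in vehicle cells. PXDN, which crosslinks the type IV network, rose by 0.54 on the log2 scale. ADAMTS14, a procollagen N-propeptidase, fell 2.07-fold, at 6.05 and 6.17 in 5aza cells, against 7.02 and 7.30 in vehicle cells. Rises numbered 2 without vehicle replicate 1 and also without vehicle replicate 2, and falls numbered 1 in these fits.

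Of 19 genes for chain modification and folding, 2 rose and 2 fell, or 21.1% called against 28.0% of all genes, with a median of 0.05. The prolyl 3-hydroxylase genes P3H2 and P3H1 rose by 0.62 and 0.41, while the lysyl hydroxylase gene PLOD2 and CRTAP, the partner of P3H1, fell by 0.68 and 0.52. No gene of this list was called without vehicle replicate 1 or without vehicle replicate 2. Of 12 collagen receptors, 2 rose and 0 fell in limma's fit (2 lower at an unadjusted p under 0.05), or 16.7% called, with a median of 0.10. ITGA2, the integrin subunit that binds fibrillar collagen, was at 11.46 and 11.31 in 5aza cells, against 10.10 and 10.01 in vehicle cells (2.51-fold higher). MRC2, an endocytic collagen receptor, rose 1.74-fold.

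Partners of collagen in the matrix included rises above 2-fold. Of 12 basement membrane genes, 4 rose and 0 fell in limma's fit (1 lower at an unadjusted p under 0.05), or 33.3% called against 28.0% of all genes, with a median of 0.25. NID1 and NID2, the nidogens that bridge laminin and type IV collagen, rose 6.53-fold and 2.57-fold. NID1 was at 6.42 and 6.23 in 5aza cells, against 3.66 and 3.58 in vehicle cells. Both nidogens lay in the dim stratum by their 4-array means. Without that stratum 2 genes of this list rose, and with housekeeping centring 5 rose. The laminin chains LAMB3 and LAMA2 rose by 0.78 and 0.85. Of 11 fibril-associated proteoglycans and glycoproteins, 2 rose and 0 fell (0 lower at an unadjusted p under 0.05), or 18.2% called, with a median of 0.15. BGN, the proteoglycan biglycan, was at 7.29 and 7.72 in 5aza cells, against 5.42 and 4.81 in vehicle cells (5.24-fold higher), and THBS1, the glycoprotein thrombospondin, rose 3.41-fold.

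**Figure D5:**
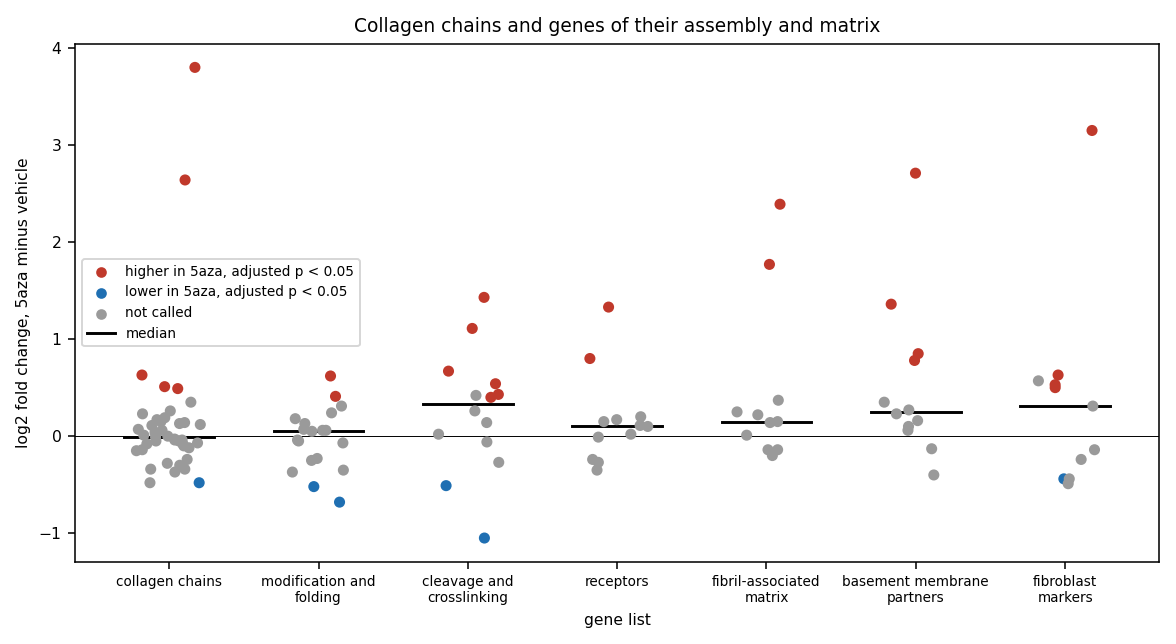
Log2 fold change (5aza minus vehicle) of each gene in the collagen chain set and 6 related gene lists; red points are called higher, blue lower and grey not called, and black bars are list medians. The chain median is -0.01, and the crosslinking list has the highest median, 0.33.

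Fibroblast markers changed in both directions, and 8 of those tested lay in the dim stratum. Of 11 tested without collagens, 4 rose (THY1, ACTA2, PDPN and PDGFRA) and 1 fell (DPT), or 45.5% called against 28.0% of all genes. THY1 was at 7.59 and 7.59 in 5aza cells, against 4.26 and 4.62 in vehicle cells. The summed log2 level of the 11 genes was 58.0 and 59.5 in 5aza cells, against 54.7 and 54.9 in vehicle cells. THY1 alone changed by 3.15, while S100A4 and POSTN had changes of -0.49 and -0.44 that were not called. DCN and LUM, fibroblast proteoglycans of the fibril-associated list, lay between 2.80 and 3.15 in 5aza cells, against 2.72 to 2.89 in vehicle cells, and FAP and PDGFRB were not called. With 1 array left out, the marker rises ran from 1 to 4 and the falls from 0 to 3, and the fall was also lost with a variance trend and with housekeeping centring. No marker is at 0 on this scale. All 4 samples are labelled as the HCT116 line, and a link between the marker and collagen changes was not tested.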

How the data were processed

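Expression was measured on 4 Affymetrix arrays, 2 of 5aza-treated and 2 of vehicle-treated HCT116 cells, grouped by the sample titles. The authors deposited log2 values for 33297 probe sets, made with Affymetrix Expression Console and RMA, per the submitters' processing notes; no source used here gives versions, probe set definition or genome build. Quantile normalization hides any change of total RNA, and RMA compresses folds of dim genes. Precision is limited by 2 arrays per group.

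A platform annotation gave 1 symbol to 19181 probe sets, which were reduced to 17958 genes by the highest mean over the 4 arrays. The 5aza and vehicle arrays were set against each other in limma 3.58.1 under R 4.3.3 (lmFit and eBayes without covariate or filter). Its two-sided p-values were adjusted by Benjamini-Hochberg over all genes. The code was also run on simulated independent arrays whose spread came from limma's own fit. That run cannot show how the fit behaves on arrays whose spread may be purely technical. The smallest p that exact permutation of these 4 arrays allows for 1 gene is 0.333. Classes and lists are described by counts and medians. Array values are given for called collagen genes, their trimer partners and the 3 members with the highest mean, and at most 4 called genes of each pathway list are named by smallest p-value; COL18A1, COL25A1, DCN, LUM and the cell type markers named were added after their values were seen. Members and lists were chosen with earlier results of these data known. Alternatives were a filter on dim genes, other scalings, a variance trend, a replicate block, all probe sets, stricter thresholds and leaving out each array. Promoter sequences are from RefSeq (GRCh38.p14).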

Additional observations from a re-analysis of the deposited data

How the results depend on the processing

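COL14A1 and COL6A3 were called as higher in 9 refits each, with log2 changes of 3.61 to 3.99 and 2.48 to 2.80; the filter on dim genes is not counted, since both pass it only through their 5aza arrays. The other 4 collagen calls (COL1A1, COL4A2, COL6A1 and COL4A5) were lost without vehicle replicate 1 and without vehicle replicate 2; a group left with 1 array is assumed to vary like the other. With 1 array left out, collagen rises ran from 2 to 5 and falls from 0 to 4, all genes higher from 1267 to 2530 and lower from 1196 to 3401, and called chains from 0 to 1 (fibrillar), 0 to 3 (network), 1 to 2 (FACIT), 0 to 1 (multiplexin) and 1 to 2 (type VI and other). Medians then ran from 0.06 to 0.09 (fibrillar) and from 0.06 to 0.25 (type VI and other). They changed sign for all collagens (-0.04 to 0.04), network (-0.05 to 0.04) and FACIT genes (-0.06 to 0.04), and ran from -0.21 to -0.08 for transmembrane genes. At an adjusted p under 0.01, 2 collagens rose and 0 fell, with 0 fibrillar, 0 network and 1 type VI or other chain called, among 1298 higher and 1255 lower genes. At a 2-fold minimum the same counts were 2, 0, 0, 0 and 1, among 907 and 470. Housekeeping centring gave 0 collagen falls and 1571 genes lower, and medians of 0.15 (all collagens), 0.22 (fibrillar), 0.12 (network), 0.15 (FACIT), 0.02 (transmembrane) and 0.29 (type VI and other). Without the dimmest 33.3% of genes, where fewer members are tested, 0 collagens fell, 0 network chains were called, and medians were 0.14 (all), 0.14 (fibrillar), 0.14 (FACIT), 0.00 (transmembrane) and 0.42 (type VI and other); these include COL14A1 and COL6A3 and support nothing about the members. Repeated quantile normalization gave medians of 0.01 (all), 0.01 (fibrillar), 0.03 (network), -0.05 (FACIT), -0.25 (transmembrane) and 0.20 (type VI and other). The titles share replicate numbers but do not say that these pair the samples, and the deviations of same-numbered arrays correlated at 0.266. With the replicate number as a block, 6 collagens rose and 5 fell, with 4 network, 4 type VI or other and 1 multiplexin chain called, among 2805 higher and 3834 lower genes. Of 393 refitted collagen values, 43 changed sign, all without a call. The cause of the other shifts was not tested. Depth does not apply to arrays, and dim signals limit 27 of 42 members.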
